A study of Drosophila melanogaster with 75 samples.

Results

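The comparison described here sets the arm titled male against the control arm: 5 arrays against 5, out of 15 arrays in all, the other 5 being the courtship arm. The members were taken by their titles and source names, from the values that the authors computed with GC-RMA in R. Every array carried RNA from the heads of its own pool of 20 males, aged 5 days, of isogenized Canton-S, a wild-type laboratory strain of Drosophila melanogaster, so p-values measure the spread between pools. All males were virgins, raised in groups and moved to vials of their own on the day before the 20 min exposure. Males of the control arm met no female. Titles, source names and sample codes set the male arm apart from the courtship arm, whose males met a cauterized virgin female. Its treatment label nevertheless repeats that cauterized virgin female, so what the males met (another male, as the title reads, or a female) is not settled by the sources used here. In all 3 arms, control too, the labels also state that the collected males had courted.

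A fly head holds the brain, the compound eyes, the antennae, head fat body, muscle, glia and blood cells, and all of them contribute RNA to such a pool. Potassium, sodium and calcium channels set how neurons fire, and adhesion proteins and active zone scaffolds shape and run their synapses. Cytochrome P450 enzymes, glutathione transferases, UDP-glycosyl transferases and esterases clear lipophilic compounds and are abundant in fat body and antennae. In bulk RNA fewer cells of a type and less RNA per cell cannot be told apart.

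RNA quality differed among the pools. Probe sets at the 3' and 5' end of a transcript measure how far labelling reached, and their log2 ratio, averaged over 5 control pairs, was 3.99, 2.74, 2.50, 2.75 and 3.26 on male arrays 1 to 5, against 3.54, 2.90, 2.66, 2.67 and 2.68 on control arrays 1 to 5. Male arrays 1 and 5 and control array 1 were above the range of 2.50 to 2.90 that held the other 12 arrays, and male array 3 was the lowest of all 15. The arms overlapped: 3.05 ± 0.60 in the male arm and 2.89 ± 0.38 in the control arm (SD, n = 5 each, exact two-sided permutation p = 0.651). The first principal component (45.9% of variance) placed male arrays 1 and 5 at -46.2 and -38.3, with all others between -7.29 and 24.4. Male array 1 differed in another way: its 18S ribosomal RNA 3' probe set read 7.075 (log2), against 10.097 to 11.469 on the other arrays. Its mean correlation with its own arm, 0.964, was the lowest of all arrays, followed by 0.974 for male array 5. Results are therefore given with all 5 male arrays and without male arrays 1 and 5.

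With all arrays, limma tested 8926 probe sets with a mean log2 intensity of at least 4. It called 327 at an adjusted p under 0.05: 194 higher in the male arm (2.17% of those tested) and 133 lower (1.49%). They hold 179 named genes that rose and 100 that fell, and 36 called probe sets have no gene symbol or several. Among the fallen were neuronal genes such as jeb, dysc, NaCP60E and CadN. Risen genes included peptidases, proteasome subunits and enzymes of amino acid, sugar and drug metabolism. With male arrays 1 and 5 left out, 0 passed (smallest adjusted p = 0.0706), while 1962, or 22.0%, had an unadjusted p under 0.05, and 49 (0.549%) had an adjusted p under 0.10, 18 higher and 31 lower. Of these 49, 36 are among the 327.

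The count of 0 was obtained with a spread estimated over the 5 courtship arrays as well. Fitted on male and control arrays alone, again without male arrays 1 and 5, 259 passed, 154 higher and 105 lower. With limma's array weights, which give noisy arrays less say, 1373 passed, and 311 of the 327 were among them. With a block on replicate number 457 passed. The count stayed at 0 with arrays centred on their median, with no filter and with a mean log2 of at least 6. It also stayed at 0 with a block on the first letter of the sample code, an intensity trend or a robust variance fit. Quantile normalization gave 2, and a model that also held each array's labelling ratio gave 3. With the authors' other processings 0 to 11 passed. With male arrays 2, 3 and 4 left out instead, a fit added after seeing the data, 2260 passed. The count of 327 moved with other single arrays too: it was 0 without control array 2, 16, 7 and 71 without control arrays 3, 4 and 5, and 586 without control array 1. It was 26 and 21 without male arrays 2 and 5, 531 and 514 without male arrays 3 and 4, 37, 34 and 41 without courtship arrays 1, 3 and 4, and 1027 and 716 without courtship arrays 2 and 5.

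What stays without male arrays 1 and 5 is the direction of every call and most of its size. All 327 kept their sign, and each had an unadjusted p of 0.023 or less. Their difference was a median of 0.858 of that with all arrays (range 0.548 to 1.194). The median fold was 1.35 without the 2 arrays against 1.41 with them for the risen probe sets, and 1.45 against 1.57 for the fallen ones. In 45 the difference was larger without them. The calls were made on data that include male arrays 2, 3 and 4, so these figures describe the called set and are no separate test of it.

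**Figure D1:**
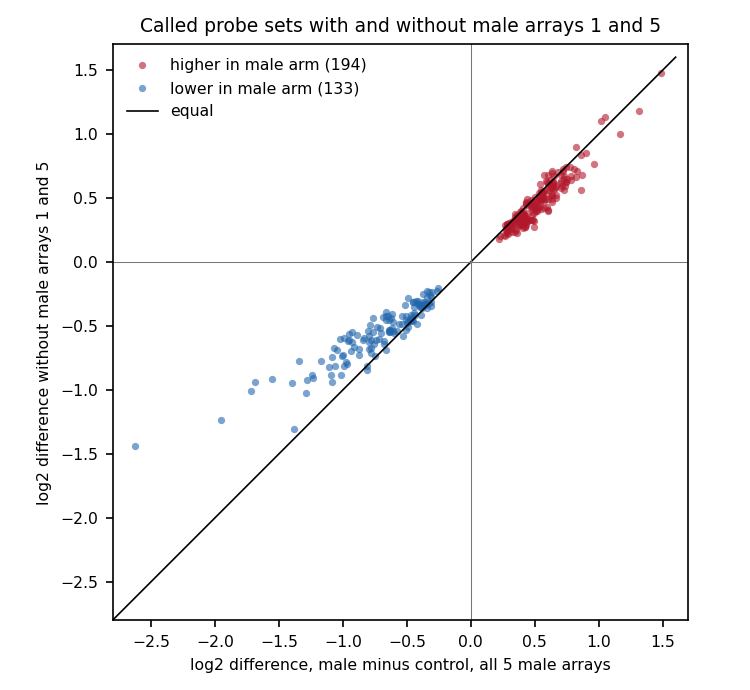
Log2 difference of the 327 called probe sets, male arm minus control arm, with all 5 male arrays (x axis) and without male arrays 1 and 5 (y axis). Each point is 1 probe set, 194 higher and 133 lower in the male arm. All lie on the same side of 0 on both axes, and the largest falls lie farthest from the line of equal size.

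Array by array, the called probe sets are given here as a description. They were chosen for differing between these same arrays, so their shared sign and their size on each male array, and the values near 0 on a control array, follow in large part from that choice. The median difference of the 194 risen probe sets from the control mean was 0.52, 0.44, 0.41, 0.44 and 0.65 on male arrays 1 to 5. That of the 133 fallen probe sets was -0.67, -0.62, -0.47, -0.47 and -0.95. On each male array all 194 lay above and all 133 below the control mean. Male array 5 was the farthest in both directions. Male array 1, whose ratio was the highest, came next in both, ahead of male array 2. Control array 1, whose ratio was also high, differed from the other controls by a median of 0.06 over the risen and -0.08 over the fallen probe sets. All 5 male arrays lay above all 5 controls in 185 of the 194 (7.26% of all tested probe sets did so), and below in 112 of the 133 (3.73%). With male arrays 2, 3 and 4 alone the counts were 186 of 194 (10.5%) and 115 of 133 (7.45%).

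**Figure D2:**
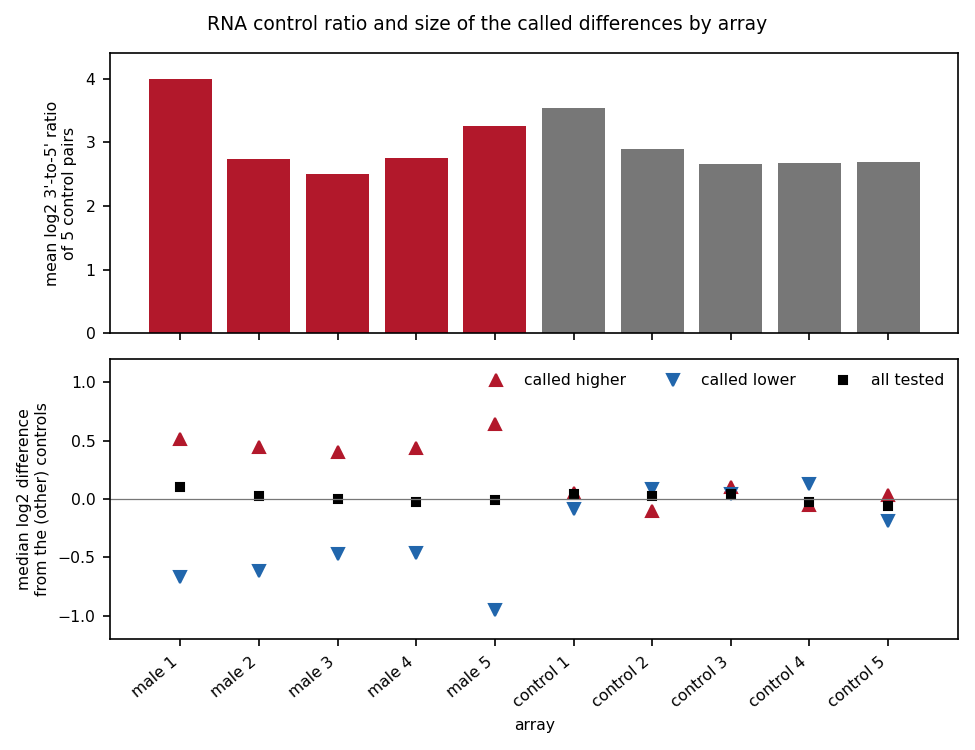
Upper panel: log2 ratio of 3' to 5' signal, averaged over 5 control pairs, on each male array (red, left) and control array (grey, right), as bars from 0. Lower panel: median log2 difference of the 194 called-higher, the 133 called-lower and all tested probe sets, from the mean of the 5 controls for male arrays and from the other 4 controls for control arrays. The called sets were chosen on these arrays, and on the 5 male arrays they lie between 0.41 and 0.65 and between -0.95 and -0.47.

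The gene lists below count each gene by its brightest probe set. Of all 7313 genes so counted, 4093 were higher in the male arm and 3220 lower, and 175 were called higher (2.39%) and 77 lower (1.05%). A list of 36 to 69 genes with 1 call lies near those shares, and a single call is a value of that gene and not of its list. The members were chosen with earlier results of these data known.

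Potassium channels of the voltage-gated and calcium-activated kinds were lower in all 11 tested genes, and 3 of them fell. Sh, the Shaker channel that repolarises neurons, read 11.27, 11.06, 11.12, 11.27 and 10.97 on male arrays 1 to 5 (log2 intensity), against 11.88, 12.02, 11.99, 11.85 and 11.68 on control arrays 1 to 5. Every male array lay below every control. The difference was -0.75 ± 0.10 (SE, 1.68-fold lower, adjusted p = 0.013) and -0.73 ± 0.11 without male arrays 1 and 5 (adjusted p = 0.0706). All 5 other probe sets of Sh had the same sign, and 2 of them were called, at -1.01 and -0.64. SK, a calcium-activated channel, read 9.58, 10.96, 11.13, 11.17 and 10.88 on male arrays against 11.66, 11.65, 11.60, 12.06 and 11.55 on controls. Male array 1 was far below the others, and the fall of -0.96 (adjusted p = 0.0488) became -0.62 without male arrays 1 and 5, a change of more than 1.5 times. Another called probe set of SK stood at -0.42, or -0.49 without the 2 arrays, and an uncalled one at -0.15 (adjusted p = 0.365). Shab, the delayed rectifier, differed by -0.70 (adjusted p = 0.0364), or -0.56 without them. The list's median was -0.70, and -0.37 without the 2 arrays, beside 0.04 and 0.01 over all 7313 tested genes. It was -0.44 without male array 5 alone. Of 8 inward rectifier and leak channels none was called (median -0.07, or 0.02 without the 2 arrays and -0.04 without male array 5 alone), and the best ranked, Irk2, stood at 0.33 (adjusted p = 0.0506) and Ork1 at -0.16 (adjusted p = 0.256).

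Sodium and calcium channels and their partners were lower in 13 of 14 tested genes, and 2 fell. NaCP60E, a sodium channel gene, read 7.02, 8.09, 8.50, 8.23 and 7.28 on male arrays against 8.61, 9.35, 9.33, 9.82 and 8.995 on controls. All male arrays lay below all controls, arrays 1 and 5 the farthest, and the difference was -1.40 ± 0.32 (SE, 2.64-fold, adjusted p = 0.0386), or -0.95 ± 0.29 without those 2. Ca-alpha1D, an L-type calcium channel, read 9.17, 9.01, 9.05, 9.02 and 8.999 against 9.79, 9.83, 9.44, 9.54 and 9.21. Here arrays 1 and 5 did not stand apart: the difference was -0.51 (adjusted p = 0.0386) with them and -0.53 without them. The list's median was -0.52, and -0.30 without the 2 arrays. OtopLa, a proton channel outside these lists, read 7.65, 8.01, 8.03, 8.35 and 7.63 against 8.83, 8.82, 8.71, 8.87 and 8.82, with no overlap, a difference of -0.88 ± 0.14 (adjusted p = 0.0179) and -0.68 without them.

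**Figure D3:**
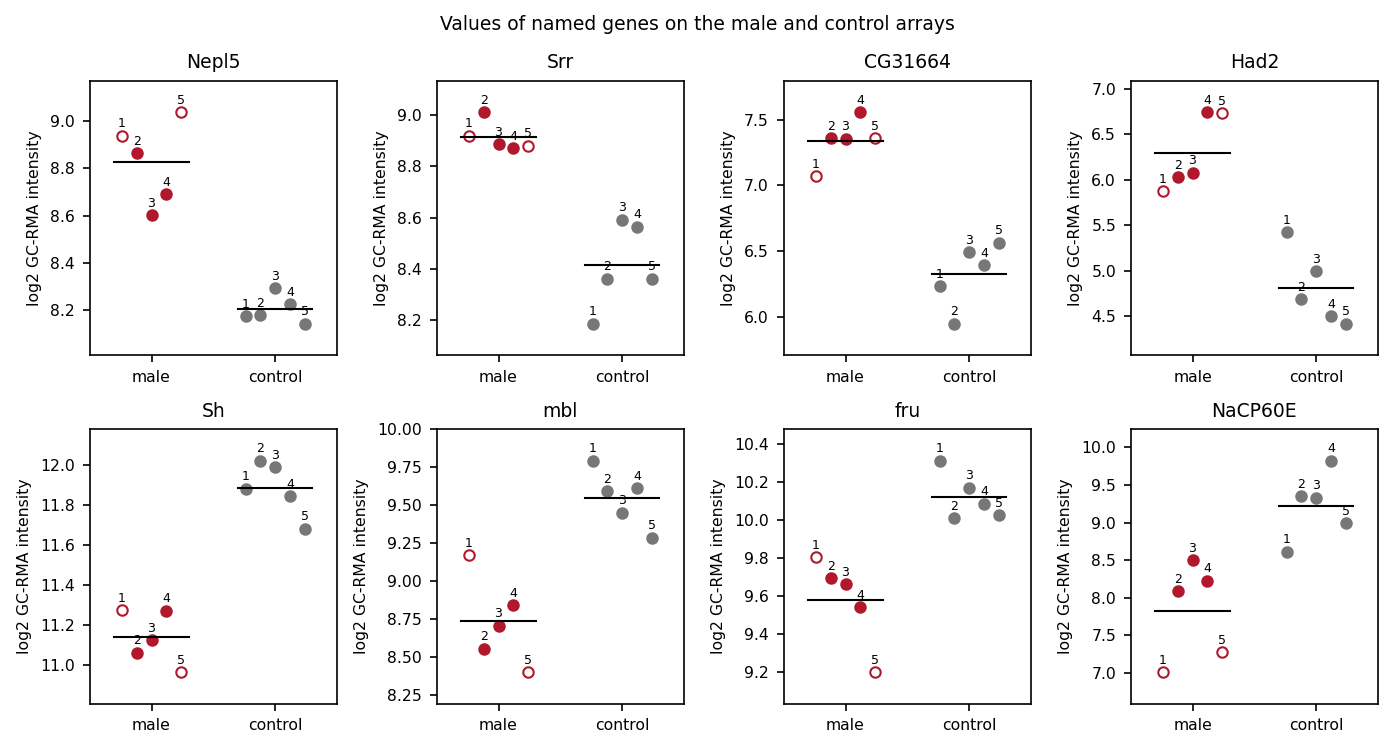
Log2 GC-RMA intensity of 8 genes on the male arrays (red, left) and control arrays (grey, right) of each panel. Numbers give the array, open circles mark male arrays 1 and 5, and lines are means of 5. In each panel the male arrays lie on one side of all control arrays. In NaCP60E male arrays 1 and 5 are the lowest, and in Srr and CG31664 they are not the highest.

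Among genes of the active zone and vesicle release 20 of 22 were lower and 2 fell, Rim (-0.78, adjusted p = 0.0386) and Liprin-alpha (-0.88, adjusted p = 0.0386), both scaffolds of the presynaptic active zone. Without male arrays 1 and 5 they stood at -0.61 and -0.73. Adhesion and cytoskeletal genes of neurons were lower in 33 of 39, and 3 fell. CadN, the N-cadherin that joins axons to their targets, read 8.00, 8.41, 8.92, 8.83 and 8.20 on male arrays against 9.10, 9.63, 9.56, 9.94 and 9.43 on controls. Its male arrays lay below all controls, and it differed by -1.06 ± 0.20 (SE, 2.09-fold lower, adjusted p = 0.0309), or -0.81 without male arrays 1 and 5. Nlg3, a neuroligin, stood at -1.02 with all arrays and -0.60 without the 2, a change of more than 1.5 times. futsch, a microtubule-associated protein of axons, stood at -0.56 and -0.49. The medians of both lists were -0.27 and -0.25, and -0.21 and -0.23 without the 2 arrays.

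The largest fitted fall was that of jeb, the ligand of the receptor tyrosine kinase Alk. It read 2.45, 5.04, 6.05, 6.06 and 3.06 on male arrays against 5.83, 7.12, 7.70, 8.08 and 7.04 on controls. Male arrays 1 and 5 were far below the rest, and arrays 3 and 4 lay above the lowest control. Its readings on male arrays 1 and 5 lay under the mean log2 intensity of 4 asked for testing, so the size of the difference, -2.62 ± 0.69 (adjusted p = 0.0488), rests on dim values. It was -1.44 without the 2 arrays. dysc, a PDZ scaffold that regulates the Slowpoke potassium channel, followed with -1.96 and -1.72 on its probe sets, and -1.24 and -1.01 without the 2 arrays. CG15465 (-1.69, -0.94 without them) and CG42724 (-1.56, -0.91 without them) fell likewise, and CG42724 also read under 4 on male arrays 1 and 5 (2.72 and 2.84). Without male arrays 1 and 5 the falls of these 4 genes were smaller by over 1.5 times.

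Neuronal marker genes were lower too, but they are no separate reading: brp, nSyb and Syn are also in the active zone list, futsch in the adhesion list and elav in the splicing list. All 5 were lower in the mean, and 4 of 5 without male arrays 1 and 5. Only futsch passed the test. Their summed linear intensity was 3918 to 6906 on male arrays against 7454 to 10750 on controls, with no overlap. Their median difference was -0.56, and -0.33 without male arrays 1 and 5. The summed level of 5 photoreceptor markers was 109500 to 117600 against 123000 to 127800, also with no overlap (median -0.15, or -0.17). Summed muscle markers lay below all controls on 4 of 5 male arrays (12280 to 16210 against 14830 to 16510, median -0.38, or -0.13, and -0.11 without male array 1 alone). The part of cell make-up in the falls was not tested.

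Among transmitter receptors and transporters 30 of 36 were lower, and nAChRalpha7, an acetylcholine receptor subunit, fell (-0.33, adjusted p = 0.0485). The list's median was -0.24, or -0.21 without male arrays 1 and 5. Cyclic nucleotide and calcium signalling genes were lower in 27 of 29 (medians -0.25 and -0.22), but the 1 called by its brightest probe set rose: Galphai, an inhibitory G protein subunit, stood at 9.73 ± 0.09 in the male arm and 9.46 ± 0.04 in the control arm (SD, n = 5 each), 1.21-fold higher (adjusted p = 0.0386). Pde1c, a calcium-dependent phosphodiesterase, is counted in that list by a brighter, uncalled probe set. Its called one read 8.18, 8.26, 8.17, 8.23 and 8.29 against 8.84, 8.76, 8.75, 8.56 and 8.51. The groups did not overlap, and the difference was -0.46 ± 0.07 (adjusted p = 0.0179), or -0.46 without the 2 arrays. Phototransduction genes were lower in 17 of 21 (median -0.17, or -0.19). Past the test were rdgA, a diacylglycerol kinase (-0.60, -0.56 without the 2 arrays), and trp, a cation channel of the phototransduction cascade (-0.34, -0.27).

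Some transcription and RNA-processing factors fell as well. fru, the male courtship regulator fruitless, read 9.81, 9.69, 9.67, 9.54 and 9.20 on male arrays against 10.31, 10.01, 10.17, 10.09 and 10.03 on controls. Every male array was below every control, array 5 the lowest, and the difference was -0.54 ± 0.11 (SE, 1.46-fold lower, adjusted p = 0.0386), or -0.49 ± 0.10 without male arrays 1 and 5 (adjusted p = 0.0747). It was the 1 called among 37 ecdysone, juvenile hormone and neuronal transcription factor genes, 31 of which were lower (median -0.25, or -0.20). pdm3, a POU-domain factor, fell 2.14-fold on a dimmer probe set than the one that represents it there (-1.10, adjusted p = 0.0179). Of 38 splicing and RNA-binding genes 36 were lower, with a median of -0.28 (-0.16 without the 2 arrays), and mbl, glo and B52 fell. mbl, muscleblind, read 9.17, 8.56, 8.71, 8.84 and 8.40 against 9.79, 9.59, 9.45, 9.61 and 9.29. Its difference was larger without the 2 arrays, -0.85 against -0.81 (adjusted p = 0.0281). Of its 4 other probe sets 3 had the same sign, and none was called. ps, the splicing factor pasilla, read 9.05, 8.96, 9.03, 9.06 and 8.26 against 10.06, 10.04, 9.88, 10.18 and 9.62, a difference of -1.08 ± 0.19 (adjusted p = 0.0219), or -0.94. Array 5 was the lowest, the other 4 male arrays lay within a narrow band, and all lay below the controls. The 3 other probe sets of ps were lower too, but none of them was called. The RNA-binding gene glo stood at -0.39 and the splicing factor gene B52 at -0.36.

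Ubiquitin ligases and deubiquitinases were lower in 26 of 32 (median -0.17, or -0.16), and 4 fell. HUWE1, a large HECT-domain ligase, read 6.41, 6.46, 6.41, 6.24 and 5.49 on male arrays against 6.92, 6.95, 6.92, 7.08 and 7.11 on controls. Array 5 stood below the other 4 male arrays, and these lay below all controls: the difference was -0.80 (adjusted p = 0.036) and -0.63 without the 2 arrays (adjusted p = 0.0706). The deubiquitinases faf (-0.63) and puf (-0.45) fell, as did the ligase hiw (-0.78), which the rule for named genes does not reach and which is named after its value was seen. Uch-L5, a deubiquitinase of the proteasome cap, rose (0.28, adjusted p = 0.0386). Of 41 chromatin genes 25 were lower (median -0.04, or -0.07, and -0.03 without male array 3, male array 4 or control array 3) and gpp, a histone methyltransferase gene, fell (-0.63, -0.55 without the 2 arrays). Of 19 clock genes 15 were lower (median -0.20, or -0.15), and dco, the Doubletime kinase (-0.41), and nocte (-0.64), needed for temperature entrainment, fell. The translation factor gene eIF4G2 (-0.50) fell while 47 of its list's 63 genes were higher (median 0.08, or 0.07). DnaJ-1, a co-chaperone of Hsp70, fell (-0.45, adjusted p = 0.0386), and 10 of 15 heat shock genes were lower (median -0.11, or -0.06, and -0.07 without control array 5).

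Neprilysin-family genes, which encode membrane or secreted metallopeptidases that cut peptides, were higher in 17 of 20, and 4 rose. Nepl5 read 8.94, 8.87, 8.60, 8.69 and 9.04 on male arrays against 8.18, 8.18, 8.29, 8.23 and 8.14 on controls. The arms did not overlap, and the difference was 0.62 ± 0.09 (SE, 1.54-fold higher, adjusted p = 0.0179), or 0.52 ± 0.09 without male arrays 1 and 5 (adjusted p = 0.0706). Nepl13 (0.72, 0.72 without them), Nepl10 (0.54, 0.61) and Nepl15 (0.53, 0.54) rose by amounts that were as large without the 2 arrays. Nepl10 read 7.25, 7.80, 7.83, 7.57 and 7.87 against 7.20, 6.81, 7.41, 7.13 and 7.07, and its male array 1 lay within the controls. The list's median was 0.44, and 0.47 without the 2 arrays, and 13 of the 20 had an unadjusted p under 0.05 in the higher direction without them (12.2% of all tested genes did so).

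Subunits of the proteasome, the protease that degrades ubiquitin-tagged proteins, were higher in 26 of 27, with a median of 0.27 (0.23 without male arrays 1 and 5), and 5 rose. Prosbeta5, a catalytic subunit, read 11.11, 11.00, 10.96, 10.92 and 11.17 against 10.78, 10.57, 10.75, 10.61 and 10.64. All male arrays lay above all controls, by a mean of 0.36 (adjusted p = 0.0386), or 0.29 without the 2 arrays. The core subunit Prosalpha3 (0.32) and the cap subunits Rpn3 (0.29) and Rpt4 (0.29) rose too. The 5th, Prosalpha7 (0.32), lies outside the rule for named genes and is named after its value was seen. Unadjusted, 18 of the 27 passed in the higher direction without the 2 arrays, beside 12.2% of all tested genes. The folds were small, between 1.22 and 1.28 among the 4 named by the rule.

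Amino acid and one-carbon metabolism was higher in 28 of 38 genes, and 5 rose. Srr, serine racemase, read 8.92, 9.01, 8.89, 8.87 and 8.88 on male arrays against 8.19, 8.36, 8.59, 8.56 and 8.36 on controls. The male arrays lay within a narrow band above every control, and the difference was 0.50 ± 0.08 (SE, 1.42-fold, adjusted p = 0.0179), or 0.51 ± 0.10 without the 2 arrays. Oat, ornithine aminotransferase, differed by 0.55 with all arrays and 0.57 without male arrays 1 and 5. Sardh, which degrades sarcosine, stood at 0.64 and 0.62, and GstZ1, maleylacetoacetate isomerase of tyrosine breakdown, at 0.57 and 0.49. The 5th, CG6415 (0.66, 0.50 without them), is named after its value was seen. The list's median was 0.20, and 0.25 without the 2 arrays, where 17 passed unadjusted in the higher direction, beside 12.2% of all tested genes.

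Most members of the detoxification families were higher. Of 54 cytochrome P450 genes 49 were higher, with a median of 0.31 (0.27 without male arrays 1 and 5), and Cyp12a4 (0.57) and Cyp9c1 (0.47) rose. Of 26 glutathione transferases 25 were higher (median 0.27 in both fits) and GstZ1 and GstE11 (0.63) rose. Of 18 UDP-glycosyl transferases 16 were higher (median 0.23, or 0.29). Ugt37B1 rose 2.48-fold. It read 7.16, 7.64, 6.60, 6.57 and 7.36 on male arrays against 5.39, 5.50, 6.35, 6.07 and 5.46 on controls, and no male array was as low as a control. Of 12 carboxylesterase and juvenile hormone genes 10 were higher (median 0.32, or 0.27), and alpha-Est7 (0.46) and Est-Q (0.62) rose. All 19 odorant-binding protein genes were higher in the mean (median 0.21, or 0.17) and none was called. Obp28a, expressed in olfactory sensilla, was the widest apart of these at 1.46 ± 0.42 (adjusted p = 0.0526), and 4 of its 5 male arrays lay above all controls.

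Single genes of defence and of sugar use were among the risen. GNBP2, of the family of glucan-binding proteins (0.50), the Toll-pathway protease psh (0.53) and the drosomycin-like peptide gene Drsl5 (0.63) rose, out of 22 immune genes of which 15 were higher (median 0.21 with all arrays and 0.33 without the 2). That median rests on single arrays: it was 0.09 without male array 4, 0.37 without control array 2 and -0.05 without control array 3. Drsl5 read 13.39, 13.12, 13.57, 13.51 and 13.02 on male arrays against 12.69, 12.55, 12.63, 12.57 and 13.01 on controls. Control array 5 stood above the other controls, level with male array 5. Hex-C, a hexokinase, rose by 0.68 (0.70 without the 2 arrays), with 16 of 19 glycolysis and sugar storage genes higher (median 0.09, or 0.07, and 0.13 without control array 4). tobi, a glucosidase regulated by insulin and glucagon-like signals in fly larvae, read 10.26, 10.03, 10.27, 10.64 and 10.50 against 9.41, 9.20, 9.61, 9.60 and 9.58, with no overlap and a difference of 0.86 ± 0.20 (adjusted p = 0.0387). The 20 insulin, fasting and feeding genes had a median of 0.07, or 0.00 without the 2 arrays. It was 0.14, 0.11 and -0.01 without male arrays 1, 2 and 5, and 0.10, 0.02 and 0.10 without control arrays 2, 3 and 4, so the list has no settled direction. Of 28 genes of fatty acid use and storage 20 were higher (median 0.13, or 0.10) and none was called, the nearest being scu (0.49, adjusted p = 0.0521) and Arc42 (0.50, adjusted p = 0.0525).

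Mitochondrial and ribosomal genes gave small differences, mostly upward. Of 69 mitochondrial ribosomal protein genes 68 were higher (median 0.24), with mRpL46 alone past the test (0.28, adjusted p = 0.0386). Their median was 0.12 without male arrays 1 and 5, and 0.20 without male array 1 alone. Of 58 oxidative phosphorylation genes 50 were higher (median 0.10, or 0.05) and of 33 cytosolic ribosomal protein genes 29 were higher (median 0.05, or 0.03), none called, led by ND-B18 (0.34, adjusted p = 0.0506) and RpL34a (0.18, adjusted p = 0.0751). Subunits of the vacuolar proton pump were lower in 13 of 18 (median -0.09, or -0.06, and -0.05 without male array 5 alone), led by Vha100-1 (-0.35, adjusted p = 0.0619). Cuticle protein genes were higher in 15 of 17 (median 0.18, or 0.12, and 0.30 without male array 4) and the Krebs cycle genes had 9 higher and 13 lower (median -0.03, or 0.01), none called. The Krebs cycle median was 0.001, -0.05, -0.06 and -0.004 without male arrays 1, 2, 3 and 5.

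**Figure D4:**
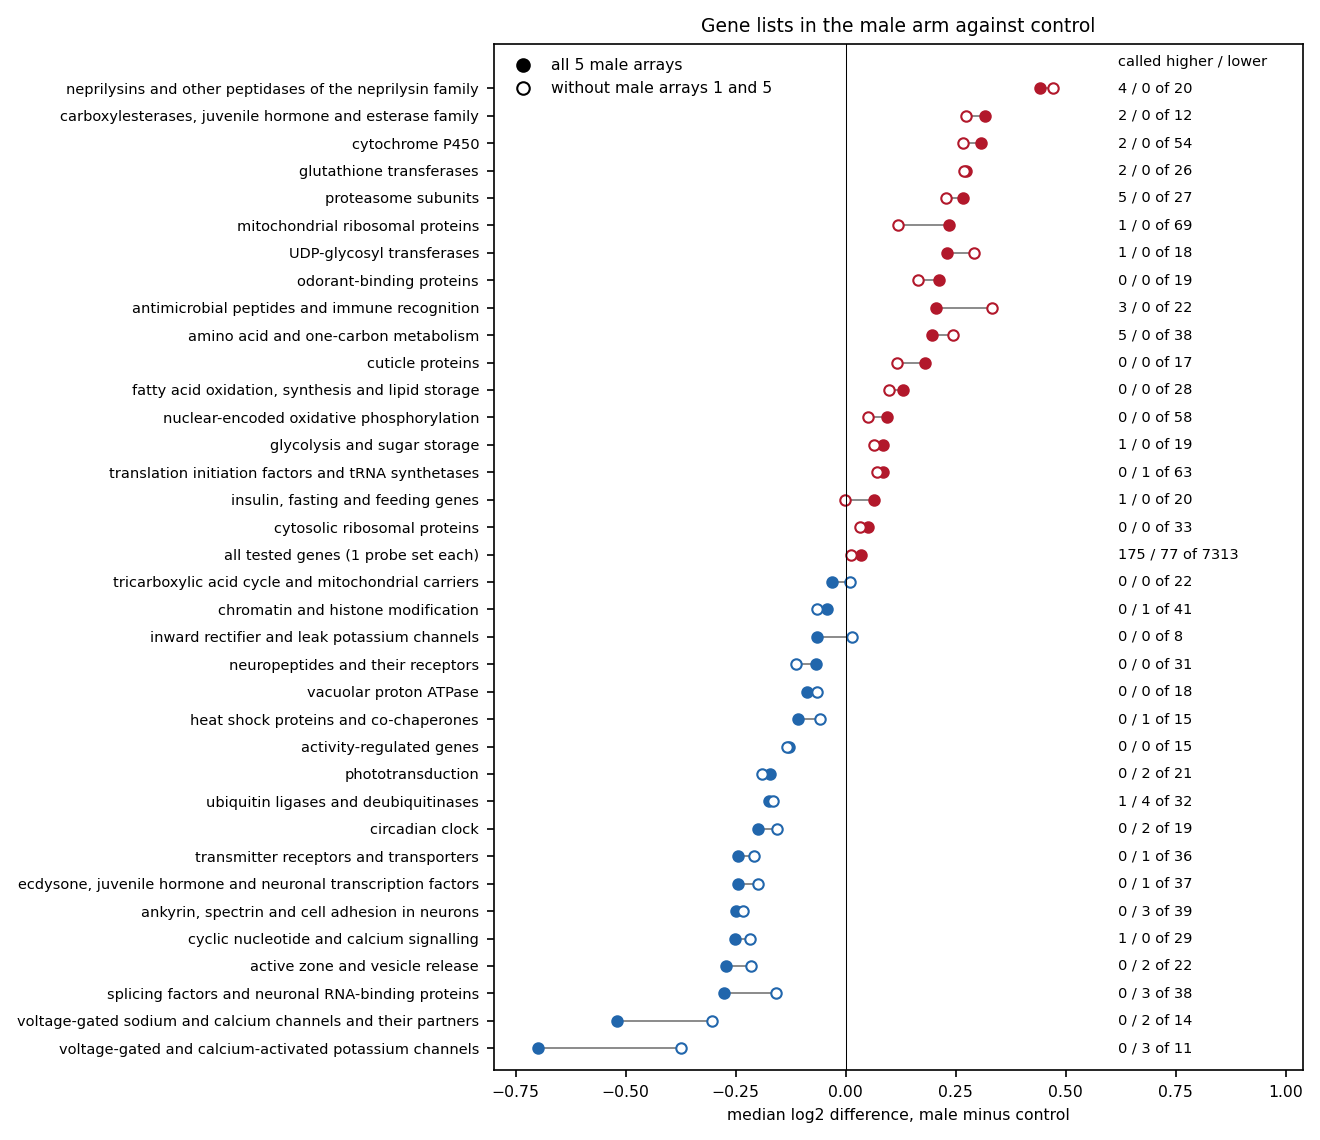
Median log2 difference, male arm minus control arm, of each gene list and of all 7313 tested genes, with all 5 male arrays (filled) and without male arrays 1 and 5 (open). The numbers at the right give the genes called higher, called lower and tested. The voltage-gated channel lists lie at -0.70 and -0.52 with all arrays and at -0.37 and -0.30 without the 2, and the neprilysin family lies at 0.44 and 0.47.

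Lists with no called member at all included 31 neuropeptide and receptor genes, 19 of them lower (median -0.07, or -0.11). That median too rests on single arrays: it was -0.12, -0.04 and -0.01 without male arrays 1, 3 and 4, and -0.01 and -0.19 without control arrays 1 and 5. Dh31, a diuretic hormone of clock neurons, read 10.94, 10.74, 11.10, 10.92 and 9.75 against 11.03, 11.47, 11.41, 11.50 and 11.12 (adjusted p = 0.0751), and male array 5 was far below the other arrays. Of 15 activity-regulated genes, induced in neurons by firing, 14 were lower (median -0.13 in both fits). Hr38, the nuclear receptor used as a mark of recent firing, stood at -0.25 ± 0.13 (adjusted p = 0.182).

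Markers of fat body, blood cells and glia stood beside the risen groups. Fat body markers summed to 37490 to 39460 (linear intensity) on male arrays, 4 of which lay above the control range of 31640 to 37560. Of the 3 tested, Lsp2 stood at 0.76 (adjusted p = 0.0506), fit at 0.46 and apolpp at 0.02, and Fbp1, Fbp2 and CG10300 were below the level for testing in both arms. Haemocyte markers summed to 2891 to 3416 against 2740 to 3003, with 3 male arrays above all controls (5 of 7 higher, median 0.19 and 0.12 without male array 5, led by Hml at 0.60, adjusted p = 0.209), and eater, He and NimC1 were below that level. All 7 glial markers were higher in the mean (summed 15300 to 21130 against 15930 to 19600, alrm at 1.01, adjusted p = 0.0947). Their median was 0.12, and 0.20, 0.19 and 0.18 without male array 1, male array 5 and control array 5. The yolk protein gene Yp3 differed by 0.10, and Yp1, Yp2 and the accessory gland and testis genes looked at were below the level for testing. The part of these tissues in the risen genes was not tested.

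Many of the risen genes are known by number only. The largest rise was that of Had2, reading 5.88, 6.03, 6.08, 6.74 and 6.73 on male arrays against 5.43, 4.69, 5.00, 4.50 and 4.42 on controls. There was no overlap, and the difference was 1.48 ± 0.30 (SE, 2.80-fold, adjusted p = 0.0374), or 1.47 ± 0.35 without male arrays 1 and 5. CG31664 read 7.07, 7.36, 7.35, 7.55 and 7.36 against 6.23, 5.95, 6.49, 6.39 and 6.56. Its male array 1 was the lowest of the arm, and the difference was 1.02 with all arrays and 1.10 without the 2 (adjusted p = 0.0935). CG2444 (1.05, 1.13 without them), CG7227 (0.90, 0.85), CG7560 (0.77, 0.75), CG10165 (0.73, 0.67) and CG9377 (1.17, 1.002) rose by similar amounts in both fits. CG14968 (0.86, 0.56) and CG14543 (0.50, 0.28) shrank by more than 1.5 times. Of the called named probe sets, 82 of 179 risen (45.8%) and 12 of 112 fallen (10.7%) had no name beyond such a number, beside 32.5% of 7886 tested.

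Some genes are measured by several probe sets. In 11 genes 2 or more probe sets were called, and in all 11 the called ones had 1 sign. Those of lola, a transcription factor gene with many isoforms, stood at -1.28 and -0.32, and those of Nf1, the Ras regulator neurofibromin, at -0.91 and -0.58. The uncalled probe sets of the 11 genes had that sign too, except the 1 of faf, at 0.13 (adjusted p = 0.631), and 1 of l(1)G0196, at 0.004 (adjusted p = 0.984), whose called ones stood at -0.68 and -0.96. Other genes with several probe sets were called on 1 only. In fru, OtopLa, Pde1c, pdm3 and CG42724 the 1 other probe set had the same sign and was not called. The same held for the 3 others of rdgA.

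Dropping the 2 arrays also brought forward genes that were not called with them. Chosen by rank without male arrays 1 and 5, CG11052 stood at -1.02 (adjusted p = 0.0706) and -0.63 with all arrays. It read 7.79, 6.16, 5.97, 5.46 and 5.86 on male arrays against 6.90, 7.11, 7.15, 6.76 and 6.46 on controls, and male array 1 alone lay above the controls. IKKbeta, a kinase of the immune deficiency pathway, stood at 0.31 without and 0.22 with the 2 arrays, CG34376 at 0.54 and 0.28, CG1662 at 0.47 and 0.35, and CG4115 at 0.31 and 0.38. Lower were Dhc64C, the dynein heavy chain (-0.44 and -0.45), CG1677 (-0.42 and -0.47) and the furry gene of neurite patterning (-0.46 and -0.40). None passed at 0.05 in either fit, and their adjusted p without the 2 arrays ran from 0.0706 to 0.0951.

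Gene length separated the calls. Gene span, with introns, was taken from the gene table for Release 6 of the genome. Counted over named probe sets, the median was 1753 bp for the 179 called that rose (quartiles 1287 and 2414). It was 24225 bp for the 112 that fell (10963 and 57559) and 3251 bp for all 7865 tested (1719 and 8200). A gene with several probe sets counts once for each, as Sh and lola do among the fallen. Tested probe sets were split by span into 4 classes of near-equal size. In the class of shortest genes 88 probe sets rose and none of 1967 fell. In the class of longest genes 4 of 1964 rose and 91 fell. These 4, named after their values were seen, were NKCC (0.27), a chloride cotransporter gene, Agpat2 (0.43), an acyltransferase gene of phospholipid synthesis, CG5254 (0.42) and CG7900 (0.62), and the only fallen genes in the second class were DnaJ-1 (-0.45) and Mppe (-0.33), a metallophosphoesterase gene.

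The gradient was there on every male array. The median difference from the control mean in the shortest class was 0.36, 0.16, 0.12, 0.09 and 0.23 on male arrays 1 to 5, and in the longest class -0.13, -0.19, -0.13, -0.16 and -0.29. Male arrays 1 and 5, whose 3'-to-5' ratios were high, spanned the widest ranges. Male arrays 2, 3 and 4, whose ratios were not high, spanned smaller ranges in the same order. The part of the ratio in the gradient was not tested. Over the arm the classes stood at 0.20, 0.07, -0.05 and -0.20 from short to long, and at 0.12, 0.05, -0.05 and -0.16 without male arrays 1 and 5. Control array 1, whose ratio was high, stood at 0.11, 0.05, 0.03 and -0.06 from the other controls. The courtship arm, measured against the same control arrays, stood at 0.07, 0.04, -0.02 and -0.07. The part of length in the differences between gene lists was not tested. The median span was 49.1 kb for the voltage-gated potassium channels and 35.1 kb for the neuronal adhesion genes, against 2.29 kb for the neprilysin family, 1.37 kb for proteasome subunits and 0.909 kb for mitochondrial ribosomal proteins. Not every list followed that order. Vacuolar proton pump genes, at 1.97 kb, had a median difference of -0.09, and haemocyte markers, at 13.9 kb, one of 0.19. Cytosolic ribosomal protein genes, at 1.12 kb, stood at 0.05.

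**Figure D5:**
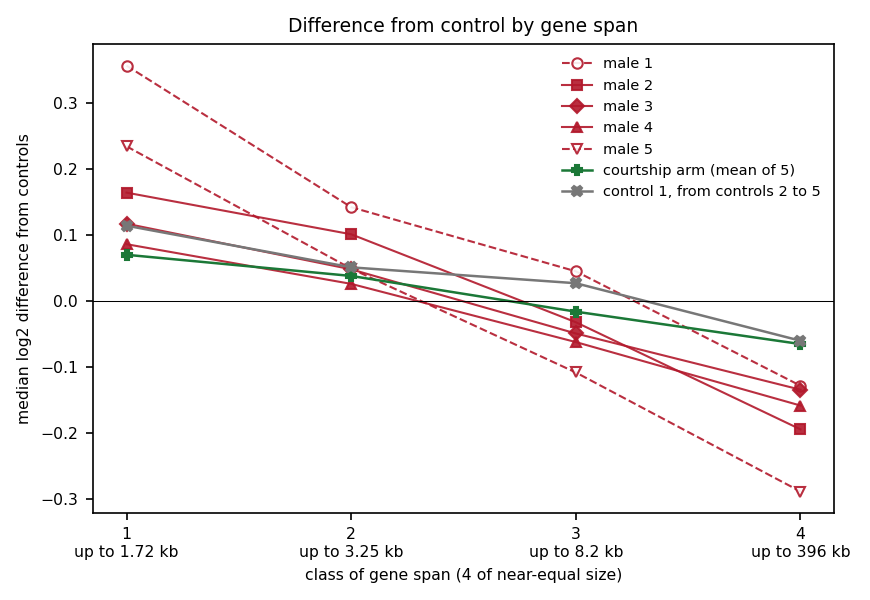
Median log2 difference from the control mean (y axis) in 4 classes of gene span, shortest at the left. Red lines are the 5 male arrays (dashed and open for arrays 1 and 5), green is the mean of the courtship arm, and grey is control array 1 against the other controls. All 5 male lines run downward, between 0.36 and 0.09 at the left and between -0.13 and -0.29 at the right.

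The courtship arm gives a side-by-side reading of the genes above. Both comparisons use the same 5 control arrays, and male against courtship uses the same male arrays, so the values are not independent. Sh stood at -0.75 in male against control, at -0.45 ± 0.10 (SE) in courtship against control (adjusted p = 0.389) and at -0.30 ± 0.10 in male against courtship (adjusted p = 0.325). Pde1c stood at -0.46, -0.33 ± 0.07 and -0.13 ± 0.07 in the same order. HUWE1 stood at -0.80, -0.17 ± 0.16 and -0.63 ± 0.16, and fru at -0.54, -0.17 ± 0.11 and -0.37 ± 0.11. In Sh and Pde1c the courtship mean lay nearer the male arm, and in HUWE1 and fru nearer the controls, which was not tested. Srr stood at 0.50, 0.10 ± 0.08 and 0.40 ± 0.08 (adjusted p = 0.324 in the last), Galphai at 0.27, 0.02 ± 0.06 and 0.25 ± 0.06, and CG9377 at 1.17, 0.84 ± 0.21 and 0.33 ± 0.21. No courtship value given here passed its test, against the controls or against the male arm.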

How the data were processed

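Per the labels, biotin-labelled RNA of 15 head pools was put on Affymetrix arrays. The authors deposited 5 processings of each array as linear intensity, per the labels and the values: GC-RMA in R (used here), GC-RMA in GeneSpring, dChip PM, dChip PM-MM and MAS5. GCOS 1.2 and GCRMA are named in the submitters' processing notes, and for the other software no version is given in the sources used here. It is a property of GC-RMA that it narrows the spread of dim probe sets.

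Values were taken to log2, after setting those under 1 to 1. Control probe sets (183) were left out, leaving 18769, of which 8926 (47.6%) had a mean log2 value of at least 4. A one-way limma 3.58.1 model in R 4.3.3 (lmFit, eBayes) over the 15 arrays gave male minus control, with two-sided p-values adjusted by Benjamini-Hochberg over all tested probe sets and a threshold of 0.05. The model was refitted without male arrays 1 and 5. It was tested on simulated data. The number of arrays limits the precision.

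Gene symbols came from the platform annotation (13647 probe sets with 1 symbol, 402 with several, 4720 with none, and a current gene table updated 0). Each gene of a list counts by its brightest probe set. Named genes are called probe sets with 1 symbol: the 12 each way with the smallest p without male arrays 1 and 5, the 6 each way with the largest difference, the 4 each way that shrink most without those arrays, up to 4 called members of each list (2 leading members where none is called), and 4 uncalled each way by p without those arrays. Members and lists were chosen with earlier results of these data known. Gene span stands in for the planned protein length, as no protein table was given, and 99.7% of named tested probe sets had one. Alternatives were the other processings, filters, scalings, blocks, a covariate, variance settings and arrays left out. The fits without male arrays 2, 3 and 4 and by gene span were added after seeing the data.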

Additional observations from a re-analysis of the deposited data

Results flagged for a closer look

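In 242 groups of 5 arrays, 17 values stood apart by Dixon's test of the gap to the nearest array; chance flags about 1 in 20 groups. Of these, 8 were on male array 5. Its log2 values were 10.88 for Cyp12a4 (10.77 to 10.79 on the other 4 male arrays), 8.71 for psh (8.20 to 8.26) and 10.75 for Irk2 (10.52 to 10.57). It read 10.38 for glo (10.67 to 10.77), 9.75 for Dh31 (10.74 to 11.10), 7.39 for gpp (7.70 to 7.82), 5.49 for HUWE1 (6.24 to 6.46) and 8.26 for ps (8.96 to 9.06). On male array 1 CG9377 read 8.67 (7.97 to 8.17 on the others) and SK 9.58 (10.88 to 11.17).

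The other 7 were on control arrays. Control array 5 read 5.37 for CG2444 (5.08 to 5.10 on the other 4 controls), 13.01 for Drsl5 (12.55 to 12.69) and 9.13 for wrapper (9.29 to 9.36). Control array 1 read 7.21 for abs (7.33 to 7.36) and had a mean log2 3'-to-5' ratio of 3.54 (2.66 to 2.90). Control array 3 read 5.97 for Shab (5.63 to 5.70), and control array 4 read 12.06 for SK (11.55 to 11.66).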

How the results depend on the processing

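The count of 327 calls changed with the processing: 613 (362 higher, 251 lower) with GeneSpring GC-RMA, 400 (156 and 244) with dChip PM, 64 (14 and 50) with dChip PM-MM and 166 (63 and 103) with MAS5. It was 12 with no filter, 625 with a mean log2 of at least 6, 572 with centred arrays, 743 after quantile normalization, 630 with an intensity trend, 1873 with array weights, 2083 at a threshold of 0.10 and 495 (379 and 116) on male and control arrays alone. Blocking on the code letter, the first letter of the sample code, gave 980. Adding the ratio of 3' to 5' signal as a covariate gave 1009. It was 0 without male arrays 1 and 5, 0 when control array 1 was left out too (2293 at an unadjusted p under 0.05), 0 over code letters A, F and H (1651 unadjusted), and 2260 without male arrays 2, 3 and 4. Leaving out 1 array gave 0 to 1027: without male arrays 1 to 5 it was 253, 26, 531, 514 and 21, without control arrays 586, 0, 16, 7 and 71, and without courtship arrays 37, 1027, 34, 41 and 716. Leaving out arrays lowers the degrees of freedom.

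Without male arrays 1 and 5 the count of 0 became 11 with GeneSpring GC-RMA, 2 with dChip PM, 1 with MAS5, 2 after quantile normalization, 3 with the covariate, 49 at 0.10, 259 on male and control arrays alone and 1373 with array weights, and 0 to 3 with 1 more array left out. In the 4 other processings 327, 325, 327 and 325 of the 327 kept their sign without those arrays (GeneSpring, dChip PM, dChip PM-MM and MAS5), and 327, 289, 284 and 262 had an unadjusted p under 0.05. IKKbeta turned to -0.037 with MAS5.

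Replicate numbers 1 to 5 are shared by the arms in the labels. With the replicate block 1690 probe sets passed (845 each way), and 457 without male arrays 1 and 5. Deviations of same-numbered male and control arrays correlated from -0.03 to 0.33. The 2 of 5 male arrays that correlated best with their own number were arrays 1 and 4. Male arrays 1, 4 and 5 share the code letters A, F and H with control arrays 1, 4 and 5. Male arrays 2 and 3 carry B and E, which no control array carries. The check thus mixes arrays of the same and of different letters, and the numbers were not treated as pairing. Without male arrays 1 and 5, only male array 4 shares a letter with a control array.

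Without male arrays 1 and 5, 7 of 43 list medians moved beyond their spread and 3 changed sign. With all arrays, 0 moved with GeneSpring GC-RMA, 13 with dChip PM, 14 with dChip PM-MM and 6 with MAS5. Of these, 1 changed sign with dChip PM-MM and 2 with MAS5. Leaving out 1 array moved 16 of the 43 medians by over 1.5 times or across 0. Among them were those of the immune, insulin, neuropeptide and Krebs cycle lists, as given beside each. Marker lists with 1 tested gene moved too. Yp3 (0.10) stood at 0.18, 0.05 and 0.02 without control arrays 1, 4 and 5. Act79B, a marker of thorax or abdomen (-0.11), stood at -0.18 and -0.06 without male arrays 3 and 4.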
